A study of Mus musculus with 6 samples.

Results

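The 8 genes described here act in sterol sensing, cholesterol transport or export, or the turnover of lipoprotein receptors. All were measured in tumour and precancerous liver of Hras12V mice and in normal liver of wild-type mice. They are Srebf2, Scap, Insig1, Insig2, Stard4, Mylip, Nr1h3 and Abca1. The genes were taken by name from an expression table of 34745 genes, in which all 8 were found, and all 8 passed a filter on low values (2 or more libraries at an FPKM of 1 or above) that 11435 genes passed. FPKM is the fragment count scaled by gene length and library size.

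The study profiled mouse liver by mRNA sequencing in 6 libraries, 1 for each of 3 tissues in each sex. The sample titles name a strain, C57BL/6, for the wild-type mice only. The groups were liver tumour (hepatocellular carcinoma) of Hras12V transgenic mice, precancerous liver of Hras12V transgenic mice, and normal liver of wild-type mice, with no treatment in any group. Males were aged 9 months and females 15 months throughout, so a sex difference is one of age too and the pair cannot be told apart. The labels name neither the promoter that drives the transgene, nor whether a library holds 1 animal or a pool, nor whether tumour and precancerous tissue came from the same mouse. No group has a replicate. The p-values rest on how far these 6 libraries depart from additive effects of tissue and sex, with information shared between genes. They do not measure a spread between animals. Total counts ran from 5996585 to 7347064 in males and from 15047022 to 18434508 in females. The 6 hepatocyte markers, Alb among them, were detected in every library. Alb alone stood between 22399 and 54600 FPKM, highest in tumour of each sex, while the summed level of the other 5 was lowest there, at 5169 FPKM in male and 4285 in female tumour, 8136 and 6819 in precancerous liver, and 9762 and 9050 in normal liver. In bulk tissue, fewer cells of a type and less RNA per cell cannot be told apart.

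Cells hold cholesterol steady with a pair of opposed transcription programmes. When sterol in the endoplasmic reticulum is low, the chaperone SCAP carries the membrane-bound factor SREBP2 (encoded by Srebf2) to the Golgi, where it is cut free to switch on cholesterol synthesis and lipoprotein uptake genes. When sterol is high, INSIG proteins hold SCAP back in the endoplasmic reticulum. Oxidised sterols then activate the nuclear receptor LXR alpha (encoded by Nr1h3), which switches on the cholesterol exporter gene Abca1 and the ubiquitin ligase gene Mylip, whose product marks lipoprotein receptors for degradation. Srebf2 and Insig1 are themselves SREBP targets, and so is Stard4, which encodes a carrier of cholesterol between membranes.

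The genes fell into a few patterns across the tissues. Srebf2, Scap, Insig1 and Insig2 were lowest in precancerous liver of each sex and higher in tumour. Abca1 was highest in tumour and lowest in normal liver, and Mylip and Nr1h3 were lowest in tumour. Between tumour and precancerous liver, Srebf2 and Scap rose and Mylip fell, 3 of 8 genes, where 25.9% of all tested genes were called, 13.8% higher and 12.1% lower. Between tumour and normal liver, Abca1 rose and Mylip and Nr1h3 fell, again 3 of 8, where 33.4% of all tested genes were called, 17.3% higher and 16.1% lower. Between males and females, Stard4 was higher and Srebf2 and Scap lower in males, 3 of 8, where 37.3% of all tested genes were called, 19.1% higher and 18.2% lower. None of these counts sets the 8 genes apart from all genes. DESeq2 called 5, 1 and 3 of the 8 in the same order of comparisons, against 23.1%, 28.4% and 30.6% of all genes. None of the 8 passed edgeR's test between precancerous and normal liver, where 0.254% of all genes were called, 0.105% higher and 0.149% lower. In that comparison 5 of the 8 had an unadjusted p under 0.05, against 15.8% of all genes. DESeq2 called 4 of the 8 there, Srebf2, Scap, Insig1 and Abca1, against 3.22% of all genes, and limma on log2(FPKM + 1) called none. The median log2 fold change of the 8 was 0.45 for tumour against precancerous liver, -0.38 for precancerous against normal liver and 0.12 for tumour against normal liver, beside 0.03, -0.01 and 0.00 over all tested genes.

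**Figure D1:**
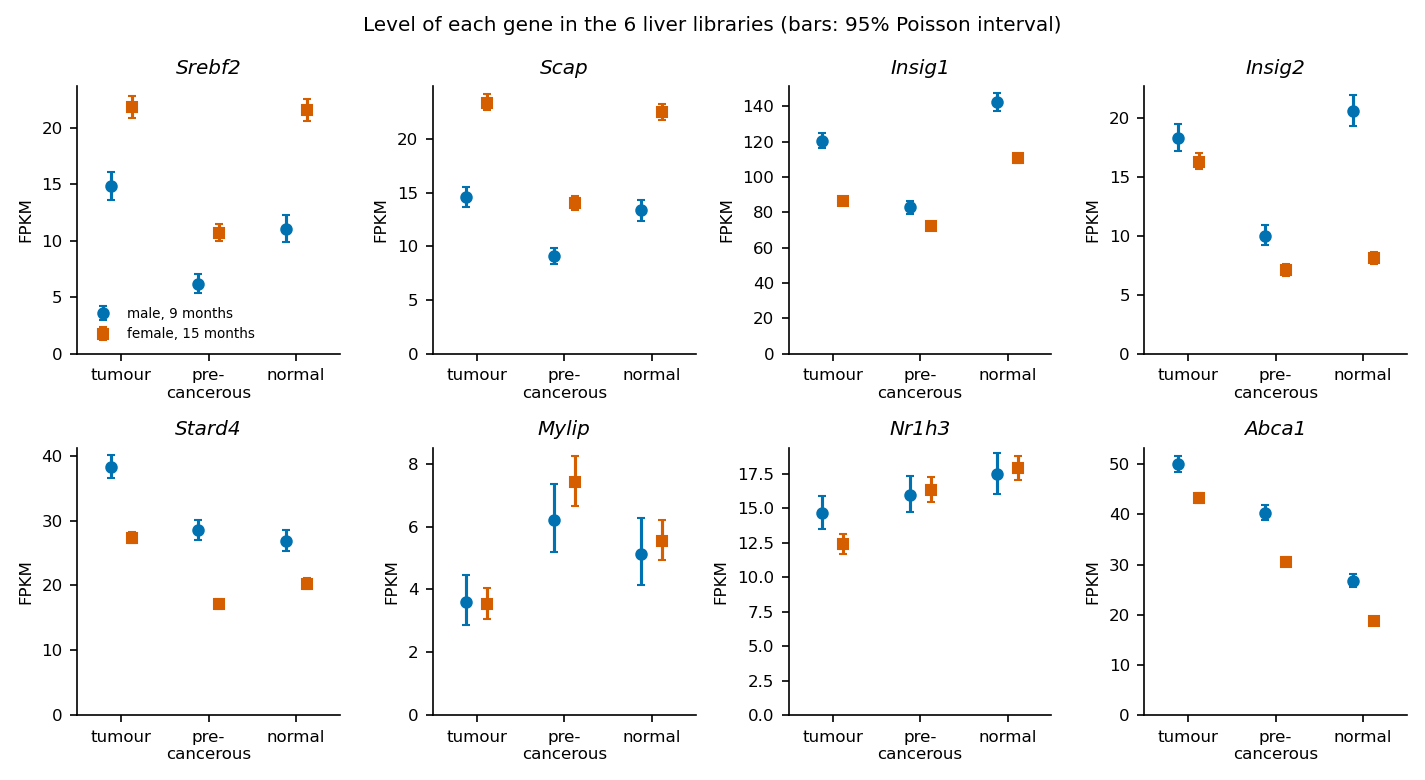
FPKM of each of the 8 genes (y axes, each from 0) in tumour, precancerous and normal liver (x axes), males as circles and females as squares, with 95% Poisson intervals that cover counting error only. In both sexes Srebf2, Scap, Insig1 and Insig2 are lowest in precancerous liver, while Abca1 is highest in tumour and lowest in normal liver.

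Srebf2, which encodes the sterol-regulated transcription factor itself, lies on the plus strand of chromosome 15 from 82147266 to 82205376 in GRCm38. Its level was 14.8 FPKM in male tumour, 6.17 in male precancerous liver and 11.0 in male normal liver, from 543, 212 and 330 counts. In females it was 21.9 FPKM in tumour, 10.7 in precancerous liver and 21.6 in normal liver, from 2010, 805 and 1900 counts. Both tumours lay above the precancerous library of the same sex, by a ratio of 2.40 in males and 2.04 in females. Across the sexes the groups did not overlap either, since the male tumour exceeded the female precancerous library. Here and for the genes below, the share of all tested genes that separate in this way was not counted. Srebf2 rose in tumour against precancerous liver with a log2 fold change of 1.12 (SE 0.14, edgeR adjusted p = 0.00697). Against normal liver the precancerous libraries had a log2 fold change of -0.93 (SE 0.14, adjusted p = 0.0875), lower in both sexes, which missed the threshold. It passed in 4 of 13 alternatives, with adjusted p-values from 0.000646 to 0.9999, among them the fits without the male tumour (0.041) and without the female tumour (0.0403). Tumour and normal liver differed by 0.18 (SE 0.13, adjusted p = 0.343), with a ratio of 1.34 in males and 1.01 in females.

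Scap, which encodes the escort of SREBP2, followed the same course. It lies on the plus strand of chromosome 9 from 110333288 to 110384950. Male levels were 14.6 FPKM in tumour, 9.09 in precancerous liver and 13.3 in normal liver, and female levels were 23.4, 14.02 and 22.5 FPKM in the same order of tissues. The precancerous library was the lowest of its sex in both sexes, although the female precancerous level lay between the male tumour and male normal levels. Scap rose in tumour against precancerous liver (log2 fold change 0.68, SE 0.13, adjusted p = 0.0218). For precancerous against normal liver it had -0.62 (SE 0.13, adjusted p = 0.152), and for tumour against normal liver 0.06 (SE 0.13, adjusted p = 0.767). The level of Scap per unit of Srebf2 was 0.983 in tumour, 1.47 in precancerous liver and 1.21 in normal liver of males, and 1.07, 1.31 and 1.04 in females, as ratios of FPKM. The ratio was thus highest in precancerous liver of either sex. With exonic lengths from the GENCODE M21 annotation it ran from 1.69 in male tumour to 2.54 in male precancerous liver.

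Whether these tumour calls passed depended on single libraries. The log2 fold changes over 13 alternatives ran from 0.94 to 1.26 for Srebf2 and from 0.60 to 0.72 for Scap. A fit without 1 library had 1 residual degree of freedom. Each such fit also called fewer of all tested genes between tumour and precancerous liver than the fit over all libraries. Over 13 alternatives the adjusted p of Srebf2 in tumour against precancerous liver ran from 1.77e-06 to 0.335 and passed in 10. It was 0.0946 without the male precancerous library and 0.0807 without the female one. For Scap it ran from 0.000293 to 0.522 and passed in 8. It was 0.173 without the male and 0.196 without the female precancerous library, and 0.06 and 0.0728 without the male and the female tumour. The direction held in all 13 for both genes.

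Since Srebf2, Scap and Insig1 form the sterol-sensing core, the sequences around their start sites are shown, from RefSeq on GRCm38.p6 and read on the gene's own strand, from 250 bases before to 50 bases after the start. Such promoters were matched for 7 of the 8 genes, all but Stard4. Capitals mark the CCAAT box (CCAAT on either strand, found in 37.4% of 32851 promoters of this length) and the E-box CACGTG (7.15%); the motifs do not overlap in these 3. The Srebf2 promoter is chr15:82147019-82147318, plus strand. Scap has 2 annotated starts, and the promoter of the upstream one, chr9:110333038-110333337, plus strand, is printed. The Insig1 promoter is chr5:28071162-28071461, plus strand.
Srebf2: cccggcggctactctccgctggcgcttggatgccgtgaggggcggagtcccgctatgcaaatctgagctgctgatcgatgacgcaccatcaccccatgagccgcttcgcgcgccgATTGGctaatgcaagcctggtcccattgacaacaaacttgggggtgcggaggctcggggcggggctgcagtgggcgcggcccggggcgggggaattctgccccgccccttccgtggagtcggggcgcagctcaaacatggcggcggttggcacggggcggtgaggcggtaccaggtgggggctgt
Scap: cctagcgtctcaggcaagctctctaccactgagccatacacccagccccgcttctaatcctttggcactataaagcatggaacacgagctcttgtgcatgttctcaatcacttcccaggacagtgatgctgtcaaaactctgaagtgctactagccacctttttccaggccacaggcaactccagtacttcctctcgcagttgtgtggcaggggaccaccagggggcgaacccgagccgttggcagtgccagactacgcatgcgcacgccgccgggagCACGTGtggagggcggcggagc
Insig1: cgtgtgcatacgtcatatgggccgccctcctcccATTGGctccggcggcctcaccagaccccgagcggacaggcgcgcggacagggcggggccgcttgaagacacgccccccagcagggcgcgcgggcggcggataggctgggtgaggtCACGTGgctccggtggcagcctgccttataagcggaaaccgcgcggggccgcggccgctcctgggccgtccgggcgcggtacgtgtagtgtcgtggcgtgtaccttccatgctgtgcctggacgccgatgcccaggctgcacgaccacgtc
The sterol regulatory element was searched as TCACNCCAC on both strands. These letters stand in 1.24% of all promoters and in none of the promoters of the 7 genes, which says only that they are absent from these windows. Looser forms of the element were not searched. Counted from the start at 0, Srebf2 has a CCAAT box at -135, Scap an E-box at 28 (at -40 from its second start, of the window chr9:110333106-110333405), and Insig1 a CCAAT box at -216 and an E-box at -101.

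The Srebf2 locus also hosts the microRNA miR-33, known in mice and humans to repress Abca1, which is why its sequence is given with the seed (bases 2 to 8) in capitals. It lies on the plus strand at chr15:82198127-82198147, and its level was not analysed here.
mmu-miR-33-5p: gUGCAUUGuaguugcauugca

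Insig1 was the most abundant of the 8 genes. It encodes the sterol-dependent anchor of SCAP that SREBPs themselves induce, and lies on the plus strand of chromosome 5 from 28071363 to 28078662. Levels were 120 FPKM in tumour, 82.7 in precancerous liver and 142 in normal liver of males, and 86.1, 71.96 and 110 FPKM in females. In both sexes normal liver was highest and precancerous liver lowest, and both tumours lay above both precancerous libraries, though the 95% counting intervals of female tumour and male precancerous liver met. Tumour and normal liver overlapped across the sexes, since the male tumour exceeded female normal liver. No comparison passed. The log2 fold change was 0.37 (SE 0.15, adjusted p = 0.137) for tumour against precancerous liver, -0.70 (SE 0.15, adjusted p = 0.158) for precancerous against normal liver and -0.33 (SE 0.15, adjusted p = 0.154) for tumour against normal liver. DESeq2 called the second of these, the only one of its 13 alternatives to do so, with adjusted p-values from 0.000631 to 0.9999.

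Insig2, the second anchor, which SREBPs do not induce in liver, behaved unlike Insig1 between the sexes. It lies on the minus strand of chromosome 1 from 121304353 to 121332589. Male levels were 18.3 FPKM in tumour, 10.01 in precancerous liver and 20.6 in normal liver. Female levels were 16.3, 7.05 and 8.09 FPKM. In males normal liver stood with the tumour at the high end, whereas in females normal liver stood with precancerous liver at the low end. Tumour exceeded precancerous liver in both sexes by a ratio of 1.83 in males and 2.31 in females, with a log2 fold change of 1.03 (SE 0.29) that missed the threshold (adjusted p = 0.0571). It passed in 6 of 13 alternatives, with adjusted p-values from 0.014 to 0.325, among them the fits without the male tumour (0.0264), without the male normal (0.014) and without the female normal library (0.0162). Without the female tumour the log2 fold change was 0.59 (adjusted p = 0.224). Tumour against normal liver gave 0.38 (SE 0.29, adjusted p = 0.365) over both sexes and depended on single libraries. It was 0.89 without the male normal library (adjusted p = 0.035, where all 13 ran from 0.035 to 0.964), a fit whose only normal library is female, and 0.75 without the male tumour, but -0.02 without the female tumour and -0.10 without the female normal library. Its standard error was the largest of the 8 genes in each tissue comparison.

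The balance of the 2 anchors differed between libraries accordingly. Insig1 exceeded Insig2 by an FPKM ratio of 6.57 in tumour, 8.26 in precancerous liver and 6.92 in normal liver of males. In females the ratio was 5.29 in tumour, 10.2 in precancerous liver and 13.6 in normal liver. The lowest and the highest ratio were thus both female. The size of the ratio depends on gene length: the FPKM values imply 7565 bases for Insig2, while its exons cover 3473 bases in GENCODE M21. With exonic lengths from that annotation the ratios ran from 2.71 in female tumour to 6.998 in female normal liver, in the same order of libraries.

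Stard4, which encodes a soluble carrier that delivers cholesterol to the endoplasmic reticulum, lies on the minus strand of chromosome 18 from 33199355 to 33213862. Its levels were 38.4 FPKM in tumour, 28.6 in precancerous liver and 26.9 in normal liver of males, and 27.4, 17.2 and 20.3 FPKM in females. The tumour was the highest library of its sex, though the female tumour lay below the male precancerous library. The log2 fold change was 0.52 (SE 0.16, adjusted p = 0.0706) for tumour against precancerous liver and 0.44 (SE 0.16, adjusted p = 0.0899) for tumour against normal liver. The first passed in 4 of 13 alternatives, with adjusted p-values from 0.0345 to 0.518. Unlike Srebf2 and Scap, Stard4 had a log2 fold change near 0 between precancerous and normal liver (-0.07, SE 0.16, adjusted p = 0.865).

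**Figure D2:**
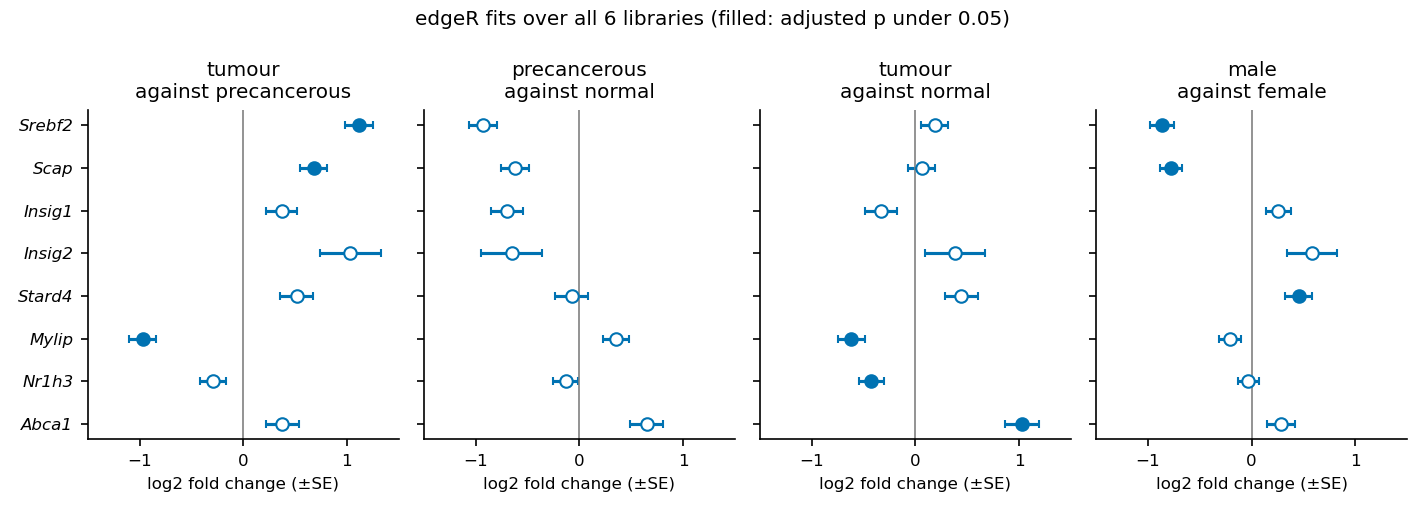
Log2 fold changes (x axes) of the 8 genes (rows) from edgeR over all 6 libraries, with bars of 1 standard error and filled points where the adjusted p was under 0.05. Srebf2 and Scap are higher and Mylip lower in tumour against precancerous liver, and no point is filled for precancerous against normal liver.

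Nr1h3, the gene of LXR alpha, varied least. It lies on the minus strand of chromosome 2 from 91184061 to 91202834. Levels were 14.7 FPKM in tumour, 15.99 in precancerous liver and 17.5 in normal liver of males, and 12.4, 16.3 and 17.9 FPKM in females. Both tumours lay below all 4 other libraries, and both normal livers above the rest. In each sex the 95% counting intervals of precancerous and normal liver met, and in males those of tumour and precancerous liver met as well. Nr1h3 fell in tumour against normal liver with a log2 fold change of -0.43 (SE 0.12, adjusted p = 0.0498), just inside the threshold. This call passed in 3 of 13 alternatives, with adjusted p-values from 0.0425 to 0.224. It was 0.137 and 0.12 without the male and the female precancerous library, 0.105 and 0.204 without the male and the female normal library, and 0.22 without the female tumour. Tumour against precancerous liver gave -0.29 (SE 0.12, adjusted p = 0.141) and precancerous against normal liver -0.13 (SE 0.12, adjusted p = 0.65).

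Abca1, the LXR target that exports cholesterol to lipid-poor apolipoprotein, ran the other way. It lies on the minus strand of chromosome 4 from 53030787 to 53159895. Levels were 50.05 FPKM in tumour, 40.3 in precancerous liver and 26.7 in normal liver of males, from 3884, 2935 and 1693 counts. In females they were 43.2, 30.6 and 18.7 FPKM, from 8418, 4862 and 3496 counts. The 3 tissues did not overlap, since every tumour exceeded every precancerous library and every precancerous library exceeded every normal one. Each tissue has only 1 library per sex, and how many of all tested genes separate like this was not counted. Abca1 rose in tumour against normal liver with a log2 fold change of 1.03 (SE 0.16, adjusted p = 0.00954), a ratio of 1.87 in males and 2.31 in females. The call passed in 11 of 13 alternatives, with adjusted p-values from 4.73e-08 to 0.0991, and was lost without the female normal library (0.0598). The 2 smaller differences missed the threshold: 0.65 (SE 0.16, adjusted p = 0.191) for precancerous against normal liver and 0.38 (SE 0.16, adjusted p = 0.152) for tumour against precancerous liver. Per unit of Nr1h3, the Abca1 level was 3.41 in tumour, 2.52 in precancerous liver and 1.53 in normal liver of males, and 3.49, 1.87 and 1.05 in females, as ratios of FPKM. The size of this ratio depends on gene length too. With exonic lengths from GENCODE M21 it was 1.69, 1.25 and 0.755 in males and 1.73, 0.926 and 0.518 in females.

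Mylip, whose product is the ligase also called IDOL, was the least abundant of the 8 and lies on the plus strand of chromosome 13 from 45389742 to 45412019. Levels were 3.6 FPKM in tumour, 6.21 in precancerous liver and 5.12 in normal liver of males, from 81, 131 and 94 counts. In females they were 3.53, 7.42 and 5.55 FPKM, from 199, 342 and 300 counts. The tissues did not overlap, with precancerous liver highest and tumour lowest, although counting error is wide: the 95% interval in male tumour ran from 2.86 to 4.48 FPKM. Mylip fell in tumour against precancerous liver with a log2 fold change of -0.97 (SE 0.13, adjusted p = 0.00861) and in tumour against normal liver with -0.62 (SE 0.13, adjusted p = 0.0225). Precancerous against normal liver gave 0.35 (SE 0.13, adjusted p = 0.291). The first call passed in 10 of 13 alternatives (0.0016 to 0.106) and was lost without the male or the female precancerous library (0.0713 and 0.106). The call against normal liver passed in 6 of 13 (0.0167 to 0.155). It was lost without the female tumour (0.13), the male or the female precancerous library (0.0672 and 0.0659) and the male or the female normal library (0.0854 and 0.111).

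Abca1 and Mylip have both been described as LXR targets, and their levels differed in opposite directions between tumour and normal liver. Whether LXR drove either gene in these livers was not tested. The FPKM ratio of Abca1 to Mylip was 13.9 in tumour, 6.49 in precancerous liver and 5.22 in normal liver of males, and 12.3, 4.12 and 3.38 in females. Their promoters are shown for that contrast, drawn as above with CCAAT boxes and E-boxes in capitals. The Abca1 promoter is chr4:53159846-53160145, minus strand, and the Mylip promoter is chr13:45389492-45389791, plus strand.
Abca1: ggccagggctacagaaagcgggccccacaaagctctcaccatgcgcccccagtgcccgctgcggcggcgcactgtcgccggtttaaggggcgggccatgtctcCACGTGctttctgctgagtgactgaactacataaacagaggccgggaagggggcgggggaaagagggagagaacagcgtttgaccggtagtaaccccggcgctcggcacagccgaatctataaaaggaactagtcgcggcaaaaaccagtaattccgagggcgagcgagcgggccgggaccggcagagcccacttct
Mylip: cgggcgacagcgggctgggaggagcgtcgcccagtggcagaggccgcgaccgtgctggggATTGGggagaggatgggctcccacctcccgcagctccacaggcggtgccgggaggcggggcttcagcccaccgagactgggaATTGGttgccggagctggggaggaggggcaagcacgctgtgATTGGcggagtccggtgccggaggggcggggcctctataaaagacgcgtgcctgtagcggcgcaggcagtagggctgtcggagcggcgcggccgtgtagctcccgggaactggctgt
Abca1 holds an E-box at -147 and no CCAAT box. Mylip holds CCAAT boxes at -190, -108 and -67, and no E-box. The LXR direct repeat was searched on both strands as AGGTCA repeated after any 4 bases. It stands in 5 of 32851 promoters and in none of those of the 7 genes. That says only that these exact letters are absent from these windows, since looser forms of the repeat were not searched.

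Macrophages also use LXR, and markers of resident liver macrophages (Kupffer cells) moved with the tissue. The summed level of 9 Kupffer cell and macrophage markers was 137 FPKM in male and 196 in female tumour, 323 and 424 in precancerous liver, and 213 and 277 in normal liver. That is the order in which Mylip stood within each sex, and for Nr1h3 both tumours were lowest as well. Unlike the marker sum, Nr1h3 was higher in normal than in precancerous liver of each sex. Abca1 was highest in tumour, at 50.05 FPKM in males and 43.2 in females, where the marker sum was lowest. Of the 9 markers 7 fell in tumour against precancerous liver and 5 in tumour against normal liver, beside 12.1% and 16.1% of all genes, and none rose in either. The 7 became 4 without the male precancerous library. None of the 9 was at 0 in any library. Marco, the marker with the largest fall against precancerous liver, was at 0.811 and 1.24 FPKM in male and female tumour. Lyz2 and Cd68 were called in neither comparison and were higher in tumour than in normal liver of each sex. The part of these cells in the levels of Mylip, Nr1h3 and Abca1 was not tested. Between tumour and precancerous liver 4 of 7 stellate and matrix markers rose and 2 fell, 1 of 6 endothelial markers rose and 2 fell, and 2 of 6 hepatocyte markers fell. Of 3 tested cholangiocyte markers 2 rose, Spp1 and Sox9, where 13.8% of all genes rose and 12.1% fell. Krt19 and Krt7, also listed for that cell type, did not pass the filter on low values. In males they were lower in tumour than in precancerous liver (Krt19 0.35 against 0.497 FPKM, Krt7 0.095 against 0.118). In females they were higher (1.07 against 0.399 and 0.208 against 0.108). Without the male or the female precancerous library 1 endothelial, 0 hepatocyte and 1 cholangiocyte marker were called, as was 1 cholangiocyte and 1 hepatocyte marker without the female tumour.

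Other genes of the same pathways were counted in 4 lists. In the tumour against precancerous comparison, enzymes of cholesterol synthesis, which SREBP2 induces, rose in 16 of 19 cases, beside 13.8% of all genes, with a median log2 fold change of 1.6 beside 1.12 for Srebf2 itself. Sqle stood at 36.5 FPKM in tumour, 5.17 in precancerous liver and 14.5 in normal liver of males, and at 33.8, 5.62 and 15.6 FPKM in females. The largest rises were those of Sqle (2.67), Hmgcs1 (2.35) and Cyp51 (2.23). The 16 became 4 without the male precancerous library and 12 without the female one. In precancerous against normal liver 4 of these 19 fell and none rose, beside 0.149% and 0.105% of all genes, with a median of -1.41 beside -0.93 for Srebf2, which did not pass. Among the 4 called, Cyp51 (-2.40), Msmo1 (-2.34) and Fdps (-2.01) had the lowest values, and Idi1 (-3.17, adjusted p = 0.0554) and Hmgcs1 (-2.76, adjusted p = 0.0593), named after their values were seen, were lower still but did not pass. DESeq2 called 16 of the 19 in that comparison and limma none. The 4 became 15 without the male or the female tumour, and 0 without any one of the precancerous or normal libraries of either sex. In tumour against normal liver 2 rose, Lss (1.26) and Sqle (1.20), and 5 fell, led by Tm7sf2 (-1.63), Idi1 (-1.35) and Msmo1 (-0.72), beside 17.3% higher and 16.1% lower over all genes. These 7 became 3 without the female tumour or the female normal library.

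Of the machinery that processes SREBPs or turns over sterol sensors 12 genes were tested and 3 called between tumour and precancerous liver, 1 higher and 2 lower, beside 13.8% higher and 12.1% lower over all genes. The 3 became 0 without the male precancerous, the female precancerous or the female tumour library, and 6 with FPKM 1 or above asked of all 6 libraries. Syvn1, a ubiquitin ligase of the endoplasmic reticulum, rose in tumour against precancerous liver (0.61). Srebf1, the sister factor that drives fatty acid synthesis, fell (-1.43), and so did Rnf139, another ubiquitin ligase of that membrane (-0.47). Srebf1 stood at 27.7 FPKM in tumour, 69.6 in precancerous liver and 17.6 in normal liver of males, and at 29.2, 81.8 and 33.6 FPKM in females. In each sex Srebf1 was therefore highest in the tissue in which Srebf2 was lowest. edgeR called none of the 12 in precancerous against normal liver (4 with an unadjusted p under 0.05, 1 by DESeq2, none by limma, 1 without the male or the female tumour). In tumour against normal liver it called none either (2 with an unadjusted p under 0.05, none by DESeq2 or limma).

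Of 14 tested LXR partners and targets, Lpl, which encodes lipoprotein lipase, rose in tumour against precancerous liver (2.16), while Srebf1 and Mlxipl, a carbohydrate-responsive factor gene (-0.77), fell, beside 13.8% higher and 12.1% lower over all genes. The 3 became 0 without the male or the female precancerous library and 2 without the female tumour. In tumour against normal liver Lpl (3.18) and Abcg1 (1.09), a second cholesterol exporter gene, rose and none fell, beside 17.3% and 16.1% of all genes. The 2 became 4 without the male tumour and 3 without the female normal library. Abcg1 was at 3.86 FPKM in tumour, 3.70 in precancerous liver and 1.67 in normal liver of males, and at 4.78, 4.97 and 2.28 FPKM in females. Both exporters were thus lowest in normal liver. The LXR list had a median log2 fold change of 0.62 between precancerous and normal liver, beside -0.01 over all tested genes, but edgeR called none of its members (5 had an unadjusted p under 0.05, 3 were called by DESeq2 and none by limma, and 2 were called without the male or the female tumour).

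Among 24 tested genes of lipoprotein uptake, cholesterol transport and storage, 2 rose and 3 fell in tumour against precancerous liver, beside 13.8% and 12.1% of all genes. The 5 became 0 without the male or the female precancerous library and 3 without the female tumour. Among those that rose was Scarb1, the receptor gene for high density lipoprotein (0.63). Lrp1, a remnant receptor gene, fell (-0.94), as did Stard5, a relative of Stard4 (-1.43), and Usp2, a deubiquitinase gene whose product acts on MYLIP (-2.74). Stard5 stood at 10.3 FPKM in tumour, 22.99 in precancerous liver and 16.7 in normal liver of males, and at 6.97, 22.1 and 19.9 FPKM in females. Its tumours were the lowest of their sex, where those of Stard4 were the highest. In tumour against normal liver 2 rose, Scarb1 (0.71) among them, and 5 fell, beside 17.3% and 16.1% of all genes, led by Stard5 (-1.15), Lrp1 (-0.85) and Ccdc22 (-0.63). These 7 became 2 without the male or the female precancerous library, 3 without the female tumour and 1 without the female normal library. edgeR called none in precancerous against normal liver (2 with an unadjusted p under 0.05, none by DESeq2 or limma).

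**Figure D3:**
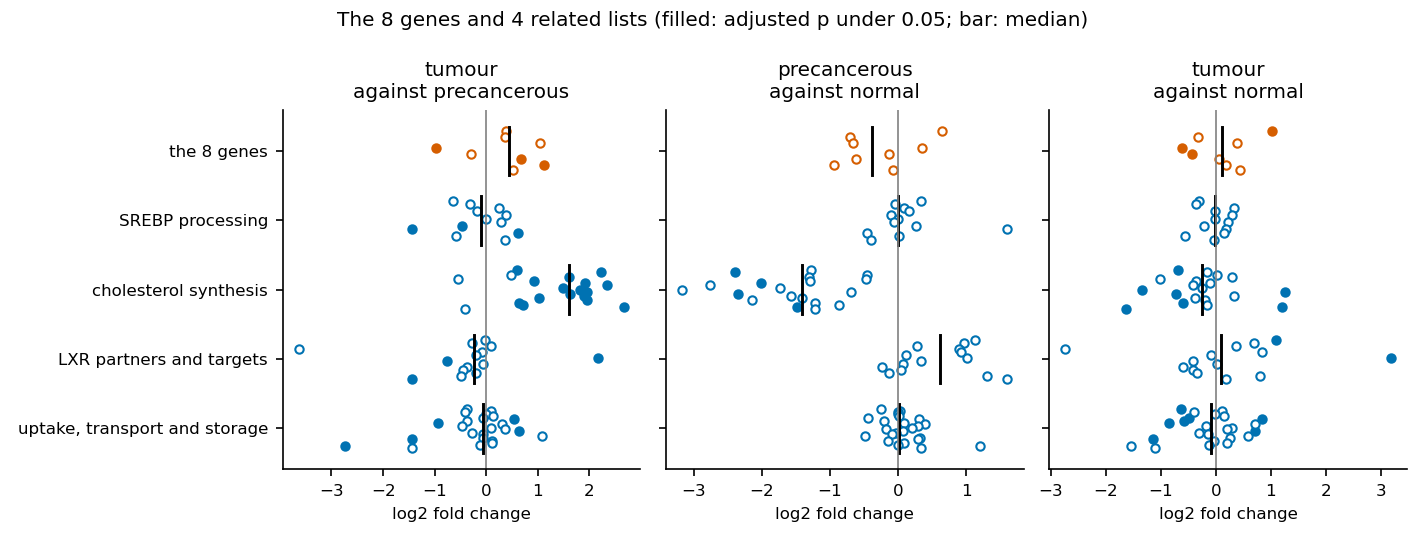
Log2 fold changes (x axes) of the 8 genes and of the tested genes of 4 related lists (rows), with filled points where the adjusted p was under 0.05 and a bar at each median. The cholesterol synthesis genes are shifted to a median of 1.6 in tumour against precancerous liver and of -1.41 in precancerous against normal liver, wider than the 8 genes themselves.

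Single pairs of libraries were compared without a test, on the log2(FPKM + 1) scale, which understates the change of low genes. In tumour against precancerous liver, 6 of the 8 genes were higher and 2 lower, Nr1h3 and Mylip, in males and in females alike. A 2-fold distance on that scale was reached by Srebf2 in males (1.14), where 11.3% of all tested genes reached it, and by Insig2 in females (1.10), where 10.8% did. In precancerous against normal liver none of the 8 reached 2-fold in either sex, where 3.68% of all genes did in males and 2.48% in females. Abca1 and Mylip were higher, and Srebf2, Scap, Insig1, Insig2 and Nr1h3 lower, in both sexes. In tumour against normal liver none of the 8 reached 2-fold in males and Abca1 alone did in females (1.16), against 14.4% of all genes in each sex. Between the sexes none of the 8 reached it in tumour or in precancerous liver, where 8.24% and 8.95% of all genes did, and Insig2 alone did in normal liver (1.25), where 11.0% did. These comparisons share libraries, so their values are not independent of each other.

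**Figure D4:**
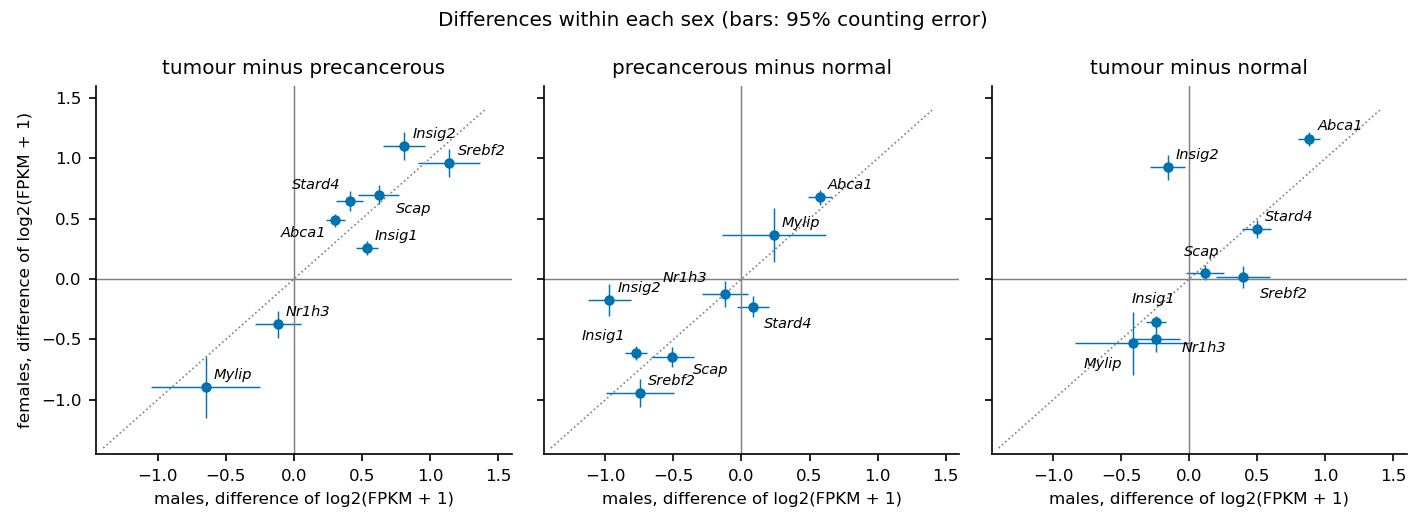
Difference of log2(FPKM + 1) of each of the 8 genes in males (x axes) and in females (y axes) for the 3 tissue comparisons, with bars of 95% counting error and a dotted line of equality. Most genes lie near the line, while Insig2 lies off it for precancerous minus normal and for tumour minus normal.

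Between the sexes, which differ in age as well, Srebf2 was lower in 9-month males than in 15-month females in each tissue, with an FPKM ratio of 0.678 in tumour, 0.575 in precancerous liver and 0.511 in normal liver (log2 fold change -0.86, SE 0.11, adjusted p = 0.00744). Scap was lower in males in each tissue as well, with ratios of 0.622, 0.648 and 0.593 (-0.78, SE 0.11, adjusted p = 0.00852). Stard4 was higher in males, with ratios of 1.4, 1.67 and 1.33 (0.45, SE 0.13, adjusted p = 0.0466). Insig2 was 2.54 times as high in male as in female normal liver, 1.42 times in precancerous liver and 1.12 times in tumour, and did not pass (0.58, SE 0.24, adjusted p = 0.113). It passed without the male tumour (0.0416) or the female tumour (0.0354), where all 13 alternatives ran from 0.0354 to 0.473. Its log2 fold change was 0.24 without the male normal and 0.25 without the female normal library. Abca1 (FPKM ratios 1.16, 1.32 and 1.43) and Insig1 (1.4, 1.15 and 1.29) were also higher in males in each tissue. Neither passed (0.28, SE 0.13, adjusted p = 0.15, and 0.26, SE 0.12, adjusted p = 0.155). With limma Abca1 passed at either pseudocount (0.0469 and 0.0443), in 2 of 13 alternatives. Mylip and Nr1h3 did not keep their direction over the tissues and did not pass (adjusted p = 0.178 and 0.826). The calls of Srebf2 and Scap passed in 10 of 13 alternatives each. Adjusted p-values ran from 5.4e-06 to 0.243 for Srebf2 and from 6.12e-08 to 0.14 for Scap. Both were lost without the male precancerous library (0.0627 and 0.0663) or the female one (0.0558 and 0.057). Stard4 passed in 5 (0.0122 to 0.318) and in none of the fits that left out a library, of which the lowest was 0.0737, without the female normal library, and the highest 0.245, without the male precancerous one. The others were 0.0774 and 0.0786 without the male and the female tumour, 0.0745 without the male normal library and 0.233 without the female precancerous one.

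Some measured features of the libraries stand beside these sex differences. Of the exonic sequence of Scap in GENCODE M21, 13.2% lies under 5830462I19Rik on the opposite strand, a gene with 32, 29 and 19 counts in male tumour, precancerous and normal liver and none in the 3 female libraries. None of the sources used here states whether reads were counted by strand, and the part of this overlap in the lower male level of Scap was not tested. The other 7 genes have no exonic overlap of this kind in that annotation. Male libraries also hold fewer counts in all, so depth, age and sex cannot be told apart.

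The order of the 6 libraries summarised each gene. For Srebf2 the female tumour and female normal liver led and did not differ beyond counting error, nor did male normal and female precancerous liver, while male precancerous liver was lowest. For Abca1 each library lay apart from the next beyond its counting interval. For Mylip every neighbour in the order met the next within its interval, and for Nr1h3 all did except male and female tumour. Among the 8 genes the 2 most alike were Srebf2 and Scap, whose centred profiles of log2(FPKM + 1) over the 6 libraries lay at a root-mean-square distance of 0.18, and the least alike were Insig2 and Mylip at 0.83.

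Among all tested genes, Srebf2 lay nearest to Gm43738 (0.08), a predicted gene of 10 to 178 counts, and Crip2 (0.12), and Scap to Pglyrp2 (0.08) and Sparcl1 (0.13). Insig1 lay nearest to Trit1 (0.10) and Lsm4 (0.11), and Insig2 to Insc (0.14) and Mal2 (0.15). Stard4 lay nearest to Cstf3 (0.04) and Rraga (0.05), Mylip to Wdr45b (0.07) and Pcolce2 (0.07), and Nr1h3 to Mtfr1 (0.04) and Rpa1 (0.04). Abca1 lay nearest to Litaf (0.06) and Tnnc1 (0.11). Litaf stood at 28.1 FPKM in tumour, 24.5 in precancerous liver and 16.4 in normal liver of males, and at 27.1, 18.4 and 11.9 FPKM in females. Like Abca1, it was highest in tumour and lowest in normal liver of each sex. These distances are a description over 6 libraries, and a gene that varies little, such as Nr1h3 with a range of 0.50, has near neighbours more easily than Srebf2 with a range of 1.67.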

How the data were processed

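Liver of 6 groups of mice was sequenced, 1 library per group. The deposited table gives a raw whole-number count and an FPKM value per gene and library, per the file headers. The submitters' processing notes list GRCm38, mm10, Cuffdiff and TopHat2 2.0.9 without saying what each was used for. Genes that reached FPKM 1 in 2 or more libraries (11435 of 34745) were tested with edgeR 4.0.16 (R 4.3.3): quasi-likelihood test on the deposited counts, TMM normalization, additive model of tissue and sex, 2 residual degrees of freedom, Benjamini-Hochberg adjustment over all tested genes, two-sided, called under 0.05. Standard errors were derived from the F statistic. Alternatives were DESeq2 1.42.0, its size factors in edgeR, limma 3.58.1 on log2(FPKM + 1) or log2(FPKM + 0.1), other filters, a model without sex or tissue, and leaving out each library; the test was tried on simulated data. Intervals of single libraries are exact 95% Poisson intervals and cover counting error only. The deposited FPKM values scale the counts by gene length and library total. Named genes are the 8 genes, up to 3 called genes per direction of each list and tissue comparison, and the 2 nearest profiles of each gene; 1 gene that this rule names is not reported here. The genes and lists were chosen with earlier results of these data known.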

Additional observations from a re-analysis of the deposited data

Results flagged for a closer look

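Insig2 differed in opposite directions in males and females between tumour and normal liver. The difference of log2(FPKM + 1) was -0.16 in males and 0.93 in females, so the male value lay -1.09 from the female one. Scaled by TMM, the values were -0.21 and 0.99. The level stood at 18.3 FPKM in tumour and 20.6 FPKM in normal liver of males, against 16.3 and 8.09 FPKM in females. Stard4 did so between precancerous and normal liver, with 0.09 in males and -0.23 in females, a male minus female difference of 0.31 (0.11 and -0.27 scaled by TMM). The male value of Stard4 lay within its 95% counting error of 0.12. With 1 library per group, neither difference between the sexes was tested, and sex, age and depth cannot be told apart.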

How the results depend on the processing

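Of 416 fold changes of the 8 genes under alternatives, 339 kept their direction and side of the threshold, 44 lost the call, 23 gained one and 10 turned direction, none of these 10 called in edgeR's fit over all 6 libraries. Scap was -0.00061 for tumour against normal without a filter, and Nr1h3 0.06 for male against female with limma at either pseudocount (0.0558 and 0.0597). Leaving out libraries gave values on either side of 0 for Insig2 in tumour against normal (-0.10 to 0.89), Stard4 in precancerous against normal (-0.21 to 0.10) and Nr1h3 in male against female (-0.14 to 0.0213). Leaving out libraries gave 0 to 4 of the 8 called for tumour against precancerous, 0 to 1 for precancerous against normal, 0 to 3 for tumour against normal and 0 to 3 for male against female, and 458 to 2933, 0 to 219, 1923 to 3241 and 762 to 3732 of all genes, where the fit over 6 libraries called 2965, 29, 3819 and 4270. Dropping the sex term left 0 of the 8 in each tissue comparison and 113, 0 and 690 of all genes in the same order, and dropping the tissue term left 0 of the 8 and 1237 of all genes between the sexes. DESeq2 called 5, 4 and 1 of the 8 in the 3 tissue comparisons and 368 of all genes for precancerous against normal. There limma called 3 and 10 of all genes at a pseudocount of 1 and 0.1, and no filter 183 (1 of the 8, Srebf2). An FPKM of at least 1 in all 6 libraries gave 78 there, and 5 of the 8 for tumour against precancerous. With a pseudocount of 0.1, members at least 2-fold apart numbered 3 in female tumour against precancerous, 1 in male and 1 in female precancerous against normal, and 2 in female tumour against normal liver. The cause of these moves was not tested, beyond the fewer libraries in fits that left one out. No paired analysis was possible because the labels give no replicate numbers, beyond the sex term, which already compares tissues within each sex. Depth limits Mylip most, with 81 counts in male tumour.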
